A study of Mus musculus with 13 samples.

Results

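Transcripts of 6 ion channels through which microglia pass potassium or protons were examined: the potassium channel genes Kcnk13, Kcnk6, Kcnj2, Kcna3 and Kcnn4 and the proton channel gene Hvcn1. They were taken by symbol from the 52636 genes listed, and all 6 passed the filter on low counts that kept 17086 genes. RNA-Seq was performed on resident myeloid cells from cortex and hippocampus of mice aged 14 to 15 months. The 7 PS2APP;Trem2wt mice (labelled PS2APP) were 5 females and 2 males, and the 6 PS2APP;Trem2ko mice (labelled PS2APP;Trem2KO) were 5 females and 1 male. All 13 mice, controls included, carried the PS2APP transgenes, which encode familial Alzheimer's disease mutant forms of human presenilin 2 and amyloid precursor protein, and no mice without these transgenes were analysed here. PS2APP;Trem2ko mice were also homozygous for a constitutive Trem2 null allele, Trem2tm1(KOMP)Vlcg, made on the C57BL/6N background and crossed into the PS2APP line on C57BL/6J, so Trem2, a myeloid receptor for lipids and lipoproteins, was missing from every cell of the mouse. Cells were sorted as live, CD11b+ and CD45+, without Ly6g or Ccr2 on their surface, and each mouse gave 1 library.

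Potassium channels set the resting membrane potential of microglia. Leak channels of the tandem-pore family keep the cell negative, which sustains the movement of its processes, and potassium efflux is a trigger of the NLRP3 inflammasome. Kcnj2, Kcna3 and Kcnn4 encode the inward rectifier, the voltage-gated channel and the calcium-activated channel that patch-clamp work on resting and activated microglia has described most often, and the proton channel carries out the acid equivalents left behind when the phagocyte oxidase makes superoxide.

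Levels are given as nRPKM, the authors' RPKM values (reads per kilobase of gene, relative to the library's total) adjusted by a size factor, which can be compared between genes as well as between mice. Counts on genes were between 26120961 and 120569609 per mouse, so that 3 counts, used as the limit of detection, corresponded to 0.0249 to 0.115 CPM. The knockout was visible in every mouse, with Trem2 at 818 to 1244 nRPKM in PS2APP;Trem2wt and 0.393 to 2.29 nRPKM in PS2APP;Trem2ko cells. Markers of microglia were abundant in both genotypes (summed level 15920 to 19112 nRPKM in PS2APP;Trem2wt and 16069 to 17772 nRPKM in PS2APP;Trem2ko). In a bulk sample, fewer cells of a type and less RNA per cell cannot be told apart, and this holds for each difference below.

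Kcnk6, Hvcn1 and Kcnk13 were the most abundant of the 6 transcripts in PS2APP;Trem2wt microglia, at a mean of 45.2 ± 7.92, 44.4 ± 5.33 and 44.1 ± 4.74 nRPKM (SD, n = 7). In mean level over all 13 mice, each was above about 95% of the tested genes. Their order was not fixed, since Kcnk6 exceeded Hvcn1 in 4 of 7 mice and Hvcn1 exceeded Kcnk13 in 3 of 7. Kcnj2 followed at 24.4 ± 4.69 nRPKM (SD, n = 7), Kcna3 at 7.11 ± 0.559 nRPKM (SD, n = 7) and Kcnn4 at 2.68 ± 0.461 nRPKM (SD, n = 7). From Kcnk13 down to Kcnn4, each gene lay above the next in all 7 mice, with ranges that did not touch. In PS2APP;Trem2ko microglia the 3 most abundant genes again shared the top places, in the order Kcnk13, Kcnk6 and Hvcn1 with overlapping ranges, and Kcnj2, Kcna3 and Kcnn4 again followed in that order in all 6 mice, with ranges apart.

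**Figure D1:**
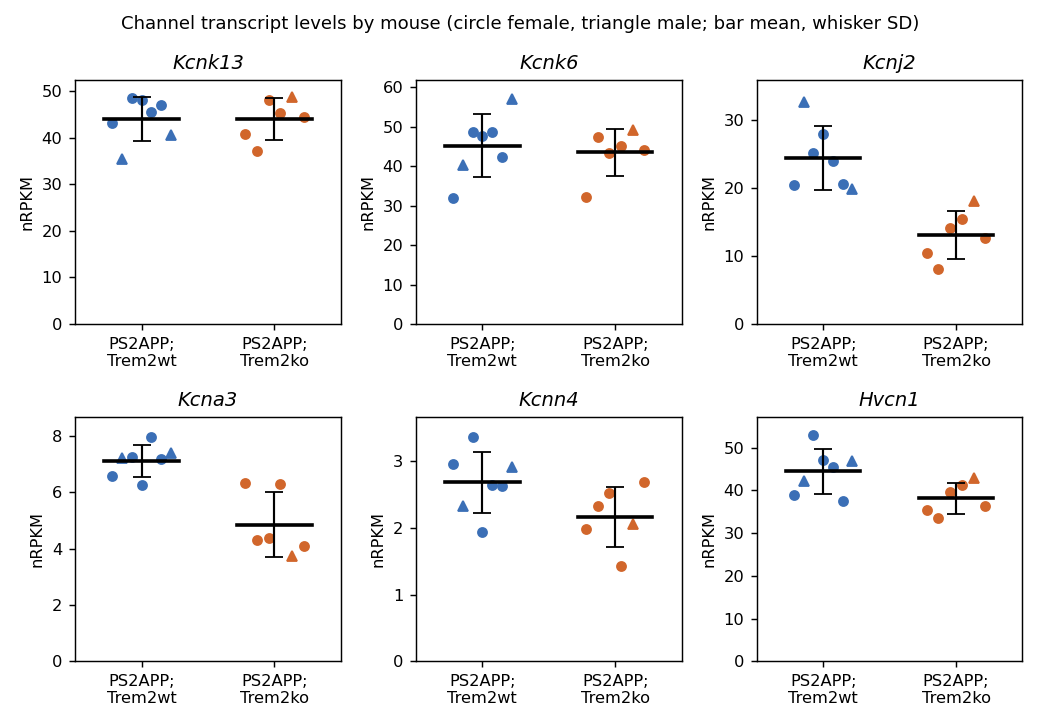
Each point is the nRPKM of one mouse (circles female, triangles male) on a linear axis that starts at 0, with the genotype mean as a bar and the SD as a whisker, for the 6 channel genes. The PS2APP;Trem2ko points of Kcnj2 all lie below the PS2APP;Trem2wt points, 4 of 6 do so for Kcna3, and the genotypes overlap widely for Kcnk13 and Kcnk6.

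The channels were then compared between genotypes, the question being whether Trem2 deletion changes the transcriptome of microglia in plaque-bearing brains. Kcnj2 and Kcna3 fell in PS2APP;Trem2ko microglia, by 46.2% and 32.0%. Kcnk13, Kcnk6, Kcnn4 and Hvcn1 did not pass the test. Thus 2 of 6 channels were called, both lower, by edgeR's quasi-likelihood test (adjusted p of 0.05 or less, Benjamini-Hochberg over all 17086 genes), where 2.04% of all tested genes were called, 1.53% lower and 0.503% higher. Without adjustment 3 of 6 channels had a p of 0.05 or less, all of them lower, against 7.56% of tested genes. All 6 estimates were negative, with a median log2 fold change of -0.27 against 0.00 over all tested genes, of which 8420 of 17086 were negative. The estimates of Kcnk13 (-0.003, SE 0.086) and Kcnk6 (-0.06, SE 0.12) were closer to 0 than their SE. Both turned positive in some of the other fits, so the signs do not show a fall shared by all 6. Neither of the fallen channels reached a 2-fold change, so 0 of 6 were called with that threshold added (0.691% of all tested genes lower and 0.0527% higher). The 6 channels were chosen with earlier results of these data known. A share above that of all tested genes may therefore be built into the choice.

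**Figure D2:**
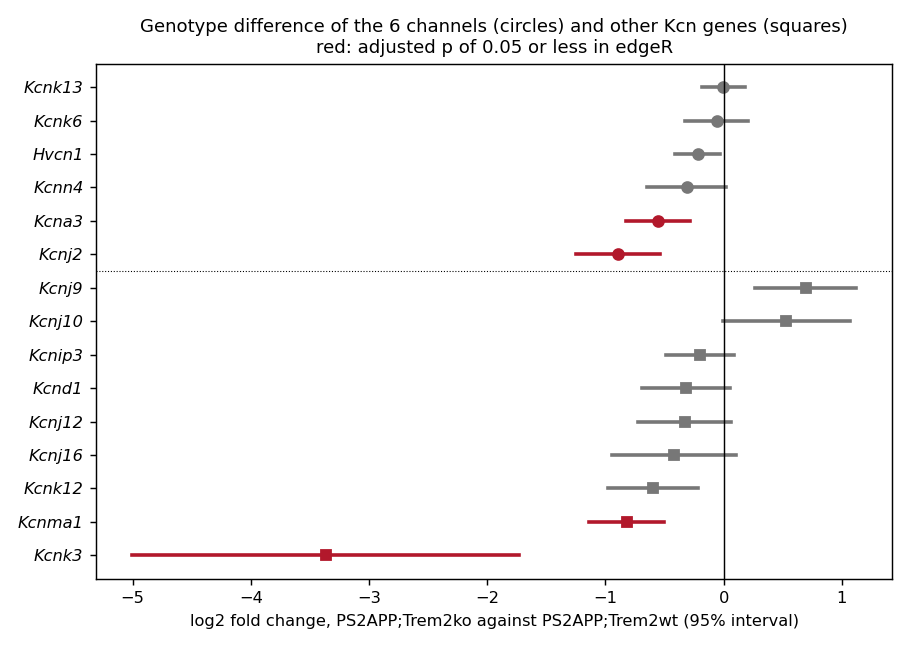
The log2 fold change of PS2APP;Trem2ko against PS2APP;Trem2wt from edgeR, with its 95% interval, is plotted for the 6 channels (circles) and for the named other Kcn genes (squares), red where the adjusted p was 0.05 or less. Among the channels Kcnj2 (-0.90) and Kcna3 (-0.56) are red, and the intervals of Kcnk13, Kcnk6 and Kcnn4 include 0.

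The leak channels came first in level. Kcnk13 (ENSMUSG00000045404, GRCm38 chr12:99964499-100062682, plus strand) encodes THIK-1, the main potassium conductance of surveying microglia, which is active at rest and is potentiated through the purinergic receptor P2ry12. Its level was 35.4 nRPKM in the lowest, 45.5 in the median and 48.5 in the highest of the PS2APP;Trem2wt mice. The corresponding PS2APP;Trem2ko levels were 37.0, 44.9 and 48.7 nRPKM. The genotypes covered the same range. In edgeR's quasi-likelihood test the log2 fold change was 0.00, with an SE of 0.086 and a 95% interval from -0.19 to 0.18 (adjusted p = 0.991). The counts behind these values were between 4246 and 25217 per mouse. P2ry12 itself was at a mean of 1949 nRPKM in PS2APP;Trem2wt and 1952 nRPKM in PS2APP;Trem2ko cells.

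Kcnk6 (ENSMUSG00000046410, chr7:29221926-29232515, minus strand) encodes TWIK-2, which carries potassium out of macrophages when the NLRP3 inflammasome is activated through extracellular ATP. Its lowest, median and highest levels were 32.0, 47.6 and 57.1 nRPKM in PS2APP;Trem2wt mice. They were 32.2, 44.5 and 49.1 nRPKM in PS2APP;Trem2ko mice, all inside the PS2APP;Trem2wt range. Between genotypes the log2 fold change was -0.06 (SE 0.12, 95% interval -0.32 to 0.21, adjusted p = 0.880, edgeR's quasi-likelihood test). Within a mouse, the ratio of Kcnk6 to Kcnk13 averaged 1.03 ± 0.207 (SD, n = 7) with Trem2 and 0.993 ± 0.161 (SD, n = 6) without it, so these leak channels had about equal mRNA in both genotypes.

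Kcnj2 (ENSMUSG00000041695, chr11:111066164-111076821, plus strand) encodes the strong inward rectifier Kir2.1, which holds the membrane near the potassium equilibrium potential. Its level was 19.9 nRPKM in the lowest, 24.0 in the median and 32.6 in the highest of 7 PS2APP;Trem2wt mice. In PS2APP;Trem2ko mice the lowest, median and highest levels were 8.05, 13.4 and 18.0 nRPKM. Every PS2APP;Trem2ko mouse lay below every PS2APP;Trem2wt mouse, a separation that 1.18% of tested genes showed in the lower and 0.439% in the higher direction. The mean fell from 24.4 ± 4.69 nRPKM (SD, n = 7) to 13.1 ± 3.57 nRPKM (SD, n = 6). This was a log2 fold change of -0.90, with an SE of 0.17 and a 95% interval from -1.25 to -0.54 (adjusted p = 0.0101, edgeR's quasi-likelihood test). With all 1716 ways of dividing the mice, an exact permutation test (two-sided) gave p = 0.00117, the smallest it can give for 6 against 7. The call was kept in each of the 13 fits that left out a mouse, with log2 fold changes from -1.01 to -0.79, and in each of 10 other settings.

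Relative to the leak channel Kcnk13 in the same library, Kcnj2 mRNA was 0.436 to 0.922 (mean 0.564) in PS2APP;Trem2wt mice. The same ratio was 0.217 to 0.370 (mean 0.294) in PS2APP;Trem2ko mice. The ranges of the ratio were apart. Because the Kcnk13 level was about equal in both genotypes, the ratio restates the difference in Kcnj2 and is not separate support for it. Kcnj16, the inward rectifier gene next to Kcnj2 on chromosome 11 (110968033 to 111027968), was at 1.16 nRPKM in PS2APP;Trem2wt and 0.867 nRPKM in PS2APP;Trem2ko cells, and its log2 fold change of -0.42 did not pass (adjusted p = 0.457, edgeR's quasi-likelihood test).

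Kcna3 (ENSMUSG00000047959, chr3:107036169-107038070, plus strand, 1 exon of 1902 bases) encodes Kv1.3, the delayed rectifier that opens on depolarization and is known from activated microglia and from T cells. It was at 6.24, 7.20 and 7.96 nRPKM in the lowest, median and highest PS2APP;Trem2wt mouse. The lowest, median and highest PS2APP;Trem2ko mice had 3.72, 4.34 and 6.33 nRPKM. Of the 6 PS2APP;Trem2ko mice, 4 lay below all PS2APP;Trem2wt mice and 2 reached the lower end of their range. The mean fell from 7.11 ± 0.559 nRPKM (SD, n = 7) to 4.85 ± 1.15 nRPKM (SD, n = 6). The log2 fold change was -0.56 (SE 0.13, 95% interval -0.83 to -0.28, adjusted p = 0.0344, edgeR's quasi-likelihood test). The two-sided exact permutation test gave p = 0.00350. This call was close to the threshold. It was kept in 4 of 13 fits that left out a mouse and lost, at adjusted p from 0.0567 to 0.0842 in edgeR, without PS2APP;Trem2wt replicate 2, 3, 5, 6 or 7 or PS2APP;Trem2ko replicate 2, 3, 5 or 6, while the log2 fold change stayed between -0.64 and -0.49.

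The gene lies within an antisense gene on the minus strand, Gm27008 (chr3:106934382-107093894), with which it shares 0 exon bases. Gm27008 was at 2.33 nRPKM in PS2APP;Trem2wt and 3.12 nRPKM in PS2APP;Trem2ko cells. Since the counting is not stated to use the strand, reads from unspliced antisense RNA cannot be told apart from Kcna3 reads. Its neighbours Kcna2, Kcna10 and Kcnc4 on chromosome 3 were all below 0.1 nRPKM on average, so Kcna3 was the most abundant channel gene of this stretch. Defining T cell markers were low, with Cd3e at 0.205 nRPKM in PS2APP;Trem2wt and 0.318 nRPKM in PS2APP;Trem2ko cells. Of the 6 T and NK cell markers tested 0 passed the test, against 2.04% of all tested genes. All 6 log2 fold changes were positive, with a median of 0.64. The part of T cells in the Kcna3 level was not tested.

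The sequences before the starts of the 2 genes that fell and of Kcnk13 are shown because the first 2 moved in the same direction and Kcnk13 did not move. Each is the 250 bases upstream of the RefSeq start on GRCm38.p6, plus strand, written 5′ to 3′: chr11:111065914-111066163 for Kcnj2, chr3:107035912-107036161 for Kcna3 and chr12:99964249-99964498 for Kcnk13. Capitals mark GAGGAA, the core bound by the myeloid transcription factor PU.1, or its reverse complement TTCCTC.
Kcnj2: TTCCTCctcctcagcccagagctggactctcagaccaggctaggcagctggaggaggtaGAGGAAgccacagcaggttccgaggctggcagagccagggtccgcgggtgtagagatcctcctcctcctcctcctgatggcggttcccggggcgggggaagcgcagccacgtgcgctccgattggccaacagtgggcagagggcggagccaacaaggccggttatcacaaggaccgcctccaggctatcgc
Kcna3: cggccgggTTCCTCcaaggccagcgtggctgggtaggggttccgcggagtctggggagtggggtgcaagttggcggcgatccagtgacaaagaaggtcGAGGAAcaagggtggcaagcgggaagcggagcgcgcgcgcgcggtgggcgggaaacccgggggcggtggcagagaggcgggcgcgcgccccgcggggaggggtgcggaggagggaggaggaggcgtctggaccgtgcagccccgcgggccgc
Kcnk13: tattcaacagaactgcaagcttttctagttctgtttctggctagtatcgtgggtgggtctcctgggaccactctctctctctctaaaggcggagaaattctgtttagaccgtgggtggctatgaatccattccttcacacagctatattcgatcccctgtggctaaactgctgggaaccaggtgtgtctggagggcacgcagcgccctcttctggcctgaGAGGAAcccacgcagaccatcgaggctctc
The core occurred at 250 and 191 bases before the start of Kcnj2, at 242 and 152 bases before that of Kcna3 and at 30 bases before that of Kcnk13, while 23.3% of 32851 promoters of this length held at least one on either strand. The GC box GGGCGG, bound by Sp family factors, was present at 102 and 51 bases before the start of Kcnj2 and at 107 and 92 bases before that of Kcna3, and not in the window of Kcnk13 (32.7% of all promoters). The E-box CACGTG was found only in the window of Kcnj2 among these 3, at 84 bases (6.02% of all promoters), and the AP-1 site TGANTCA in none of them (6.75% of all promoters). Kcnn4, which was not called, held a GC box at 14 bases and the E-box at 133 bases before its start. These 2 motifs were thus not confined to the genes that fell. None of these matches overlapped a match to another motif. GC content was 65.6% for Kcnj2, 74.4% for Kcna3 and 52.8% for Kcnk13, against a median of 52.4% over all promoters. These are matches of letters only, and binding was not measured.

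Kcnn4 (ENSMUSG00000054342, chr7:24370263-24386690, plus strand) encodes KCa3.1, which opens when calcium binds its calmodulin subunit and is known to sustain calcium entry in activated microglia. It was the least abundant of the 6, at 1.93, 2.65 and 3.36 nRPKM in the lowest, median and highest PS2APP;Trem2wt mouse. The PS2APP;Trem2ko mice had 1.43, 2.19 and 2.68 nRPKM at the same positions. The ranges overlapped, with 1 PS2APP;Trem2ko mouse below all PS2APP;Trem2wt mice. Its log2 fold change of -0.31 (SE 0.16, 95% interval -0.65 to 0.02) did not pass (adjusted p = 0.369, edgeR's quasi-likelihood test). The interval leaves room for a decrease of the size of that of Kcna3, with 150 to 957 counts per mouse.

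Hvcn1 (ENSMUSG00000064267, chr5:122206804-122242297, plus strand) encodes the voltage-gated proton channel Hv1. Its lowest, median and highest levels were 37.6, 45.4 and 52.9 nRPKM in PS2APP;Trem2wt mice. In PS2APP;Trem2ko mice they were 33.5, 38.0 and 42.8 nRPKM. All 6 PS2APP;Trem2ko mice lay below the PS2APP;Trem2wt median and 3 of them below every PS2APP;Trem2wt mouse. The log2 fold change of -0.22 (SE 0.088, 95% interval -0.41 to -0.03) did not pass after adjustment (adjusted p = 0.241, edgeR's quasi-likelihood test), and the two-sided exact permutation test gave an unadjusted p = 0.0361. That p was 0.05 or less in 6 of 13 repeats without 1 mouse, and was 0.0635 in females only (exact permutation test). At its 3′ end Hvcn1 overlaps Tctn1 on the opposite strand (chr5:122237848-122264460), with 44.2% of its exon bases shared. Tctn1 was at 2.81 nRPKM in PS2APP;Trem2wt and 2.30 nRPKM in PS2APP;Trem2ko cells, and how much of the Hvcn1 count came from it was not tested. B cells are another cell type rich in this channel. Of 6 B cell markers, Ighm (303 and 322 nRPKM in PS2APP;Trem2wt and PS2APP;Trem2ko cells) and Cd79b (19.2 and 17.5 nRPKM) were abundant and did not pass the test, while Cd79a was below 0.2 nRPKM in every mouse and Pax5 was at 0 in all PS2APP;Trem2ko mice. Their part in the Hvcn1 level was not tested.

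The sexes were unequal in number, and the only male PS2APP;Trem2ko mouse had the highest Kcnj2 (18.0 nRPKM) and the lowest Kcna3 (3.72 nRPKM) of its genotype. Among females, Kcnj2 was 20.5 to 27.9 nRPKM in 5 PS2APP;Trem2wt mice and 8.05 to 15.5 nRPKM in 5 PS2APP;Trem2ko mice. These ranges were also apart, and the exact permutation test over females gave p = 0.00794, the smallest p for 5 against 5. Kcna3 was 6.24 to 7.96 nRPKM in PS2APP;Trem2wt females and 4.09 to 6.33 nRPKM in PS2APP;Trem2ko females. With females only its log2 fold change was -0.47 and no longer passed (adjusted p = 0.140, edgeR's quasi-likelihood test). Kcnk13 was 43.2 to 48.5 nRPKM in PS2APP;Trem2wt females and 37.0 to 48.1 nRPKM in PS2APP;Trem2ko females. Males were too few for a test.

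**Figure D3:**
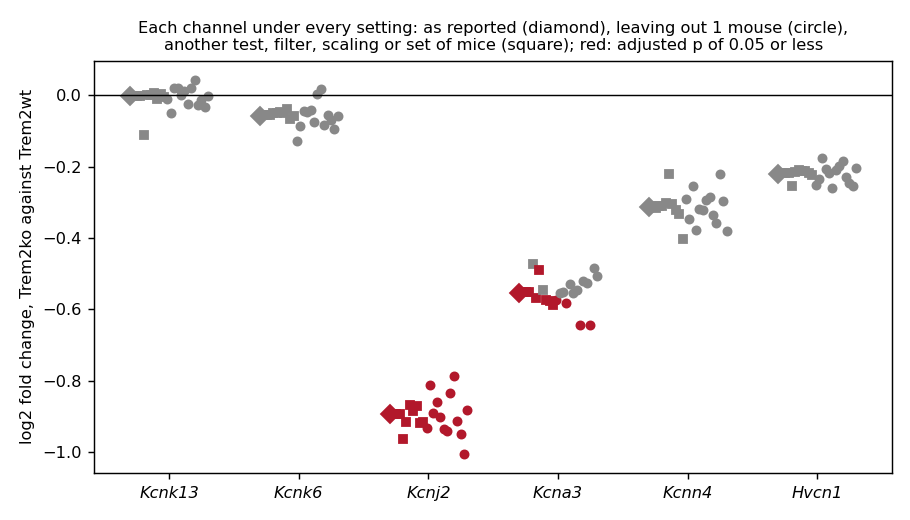
Each symbol is the log2 fold change of a channel in one fit: as reported (diamond), with one mouse left out (circle), or with another test, filter, scaling or set of mice (square), red where the adjusted p was 0.05 or less. Kcnj2 is red in all fits, Kcna3 is red in some fits and always below 0, and Kcnk13 lies on either side of 0.

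To place the channels among their relatives, all 94 other annotated genes whose symbol starts with Kcn were taken by symbol. They include accessory subunits and a few antisense RNAs, and 47 of the 94 passed the filter on low counts. Of these 47, 2 were lower and 0 higher (1.53% and 0.503% of all tested genes), with a median log2 fold change of -0.07, and 7 had a mean of at least 1 nRPKM. In PS2APP;Trem2wt cells the most abundant were Kcnd1, an A-type voltage-gated channel (12.4 ± 2.64 to 9.91 ± 2.78 nRPKM, PS2APP;Trem2wt to PS2APP;Trem2ko), and Kcnk12, the closest relative of Kcnk13 (8.41 ± 1.72 to 5.56 ± 1.56 nRPKM). Kcnip3, a calcium-binding accessory protein of A-type channels, had 8.20 and 7.16 nRPKM, and the inward rectifier Kcnj12 had 4.16 and 3.32 nRPKM. None of these 4 passed in edgeR's quasi-likelihood test, with log2 fold changes of -0.32 (adjusted p = 0.424), -0.60 (adjusted p = 0.111), -0.20 (adjusted p = 0.536) and -0.33 (adjusted p = 0.429). Kcnk12 amounted to 0.190 ± 0.031 (SD, n = 7) of the Kcnk13 level with Trem2 and 0.127 ± 0.035 (SD, n = 6) of it without Trem2. Kcnj9 (1.60 and 2.59 nRPKM, log2 fold change 0.69, adjusted p = 0.1002) and Kcnj10 (0.758 and 1.10 nRPKM, log2 fold change 0.53, adjusted p = 0.344), both inward rectifiers, had higher means in PS2APP;Trem2ko cells and did not pass in edgeR's quasi-likelihood test. Kcnj10 is also on the list of 7 astrocyte markers used below, and which cells its reads came from was not tested.

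The 2 other Kcn genes that fell were Kcnma1, the large-conductance calcium-activated channel, and Kcnk3, the acid-sensitive leak channel TASK-1. Kcnma1 was 1.16 to 1.80 nRPKM in PS2APP;Trem2wt mice and 0.506 to 1.13 nRPKM in PS2APP;Trem2ko mice, ranges that did not overlap. In edgeR's quasi-likelihood test it fell by 0.82 on the log2 scale (SE 0.15, adjusted p = 0.00891), and it kept the call in each of the 23 other fits. Kcnk3 was rare, at 0.123 to 1.83 nRPKM in PS2APP;Trem2wt and 0.00589 to 0.0998 nRPKM in PS2APP;Trem2ko cells, where it had 4 to 51 counts. Its log2 fold change of -3.37 (SE 0.77, adjusted p = 0.0329, edgeR's quasi-likelihood test) was the largest of these genes, and it became -2.45 (adjusted p = 0.0616) without PS2APP;Trem2wt replicate 3, which had the highest level. The call was also lost, on leaving out 1 mouse, without PS2APP;Trem2wt replicate 5 or PS2APP;Trem2ko replicate 1, 2, 3 or 6. Kcnk3 also did not pass with voom+limma (adjusted p = 0.0792), with sex as a covariate in edgeR (adjusted p = 0.0523), or with limma on log2(nRPKM + 0.1) and log2(nRPKM + 1), where its log2 fold change was -1.57 and -0.42.

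The protein-coding Kcn genes also number 94, but this set holds the 5 potassium channels and leaves out the antisense RNAs. Summed over these genes, Kcnma1 and Kcnk3 included, the level was 148 to 182 nRPKM in PS2APP;Trem2wt mice and 130 to 161 nRPKM in PS2APP;Trem2ko mice. The 5 channels made up 72.7% ± 1.55 (SD, n = 7) of this sum with Trem2 and 73.7% ± 2.91 (SD, n = 6) without it. Within the sum the share of Kcnj2 went from 14.4% ± 3.01 to 8.87% ± 1.78, and that of Kcna3 from 4.20% ± 0.379 to 3.36% ± 0.937. Kcnk13 went from 26.0% ± 2.58 to 30.2% ± 1.91 and Kcnk6 from 26.5% ± 3.20 to 29.8% ± 3.59, which are shares of a smaller sum and not higher levels. These shares are a description and were not tested.

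**Figure D4:**
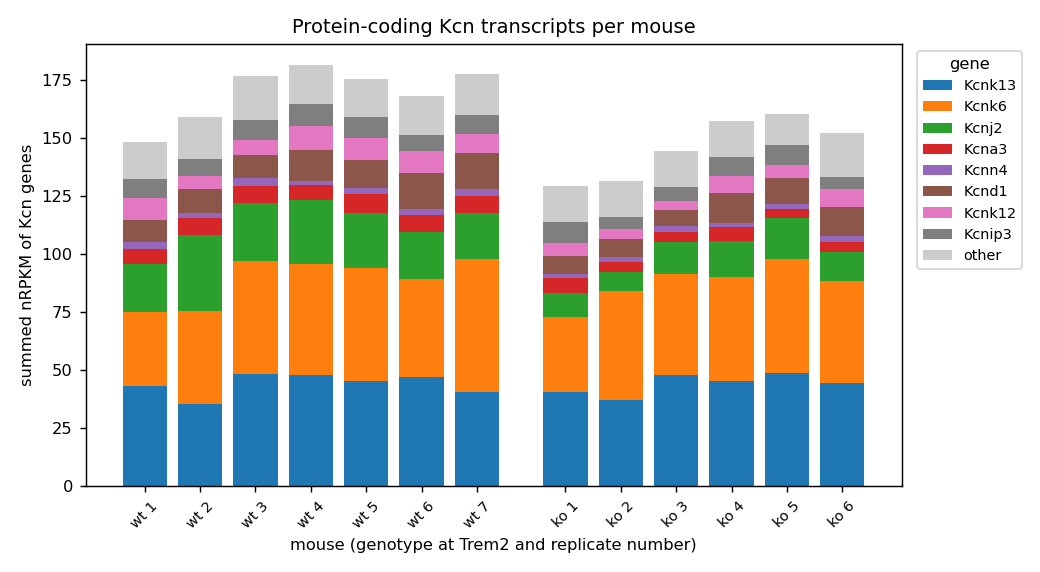
Each bar is one mouse and its height the summed nRPKM of the 94 protein-coding Kcn genes on an axis that starts at 0, stacked by gene. Kcnk13 and Kcnk6 are the tallest segments in every mouse, and the Kcnj2 segment is 19.9 to 32.6 nRPKM tall in PS2APP;Trem2wt mice and 8.05 to 18.0 nRPKM in PS2APP;Trem2ko mice.

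Genes that work with these channels were described as lists, in which 1 of 66 tested genes passed (68 were listed), against 2.04% of all tested genes. Without adjustment 14 of the 66 had a p of 0.05 or less in the lower direction, against 7.56% of all tested genes, and 4 in the higher direction, where the share in both directions over all tested genes was 14.8%. These lists were also chosen with earlier results of these data known, so such counts are a description. Inflammasome and purinergic genes, which act upstream and downstream of potassium efflux, had 0 of 9 called and a median log2 fold change of -0.04 (unadjusted 0 lower and 2 higher), with P2rx4 at 55.7 and 52.9 nRPKM and P2rx7, the ATP-gated channel, at 45.6 and 44.5 nRPKM in PS2APP;Trem2wt and PS2APP;Trem2ko cells. The phagocyte oxidase, the partner of the proton channel, had 1 of 7 lower and a median of -0.12 (unadjusted 2 lower and 1 higher). Its called member was Rac1, a small GTPase that activates the oxidase and has wider roles in the cytoskeleton, at 44.9 and 38.4 nRPKM (log2 fold change -0.23, SE 0.056, adjusted p = 0.0483, edgeR's quasi-likelihood test). This call was kept in 0 of 13 fits that left out a mouse and in 4 of 10 other settings. The membrane subunit Cyba was at 528 and 487 nRPKM, the cytosolic subunit Ncf1 at 132 and 147 nRPKM, and Ncf4, another cytosolic subunit, at 41.8 and 47.8 nRPKM, with none of these past the threshold. Calcium entry and calmodulin genes, which feed Kcnn4, had 0 of 13 called and a median of -0.04 (unadjusted 1 lower and 1 higher), with the calmodulin gene Calm2 at 112 and 115 nRPKM and the store-operated channel subunit Orai1 at 67.6 and 65.4 nRPKM.

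The lists of ion transport had lower medians with none called, against 2.04% of all tested genes. Without adjustment 7.56% of all tested genes were lower, and 14.8% differed in either direction. Sodium-potassium pump and cation-chloride cotransport genes, which build and use the potassium gradient, had 0 of 11 called and a median of -0.26 (unadjusted 5 lower and 0 higher). In this list the pump subunit Atp1b3 was at 101 and 96.8 nRPKM, the cotransporter family member Slc12a9 at 32.4 and 26.6 nRPKM and the sodium-potassium-chloride cotransporter Slc12a2 at 29.0 and 19.5 nRPKM. Acid-base transport had 0 of 12 tested genes called and a median of -0.20 (unadjusted 4 lower and 0 higher), with the endosomal sodium-proton exchanger Slc9a9 at 64.3 and 71.3 nRPKM. The lactate exporter Slc16a3 was at 13.6 and 11.3 nRPKM and the exchanger Slc9a8 at 11.5 and 10.8 nRPKM. Chloride and volume channels had 0 of 14 tested genes called and a median of -0.09 (unadjusted 2 lower and 0 higher). The list held Bsg, a membrane chaperone and not itself a channel, at 217 and 188 nRPKM, which was among the 2 lower genes. Clic1 was at 165 and 163 nRPKM and the chloride-proton exchanger Clcn4 at 39.2 and 40.1 nRPKM.

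Markers of other cells the gate could hold did not pass the test with 1 exception, where 2.04% of all tested genes passed. The summed levels in PS2APP;Trem2wt and PS2APP;Trem2ko mice were 10.02 to 30.7 and 16.8 to 44.6 nRPKM for 8 border macrophage markers, and 14.5 to 254 and 2.63 to 49.3 nRPKM for 8 monocyte and neutrophil markers. They were 0.852 to 5.33 and 0.785 to 8.46 nRPKM for 8 T and NK cell markers, and 285 to 373 and 279 to 394 nRPKM for 6 B cell markers, nearly all of it Ighm, with Cd79b. Neuronal markers summed to 3.64 to 11.5 and 3.99 to 11.3 nRPKM, astrocyte markers to 56.5 to 70.8 and 61.2 to 77.5 nRPKM, and oligodendrocyte markers to 24.5 to 38.8 and 22.6 to 33.6 nRPKM. Endothelial and pericyte markers summed to 8.84 to 19.8 and 9.16 to 14.8 nRPKM, and red cell genes to 0.0128 to 5.50 and 0.0411 to 6.20 nRPKM. The exception was Flt1 among the 8 endothelial and pericyte markers, called lower (log2 fold change -2.20). The median log2 fold change of that list was -0.02, with 5 values negative and 3 positive. Which cells the Flt1 reads came from was not tested. Of 10 microglial markers 1 was lower, against 1.53% of all tested genes. It was the fractalkine receptor Cx3cr1 (1526 and 1088 nRPKM, log2 fold change -0.49, adjusted p = 0.00670, edgeR's quasi-likelihood test). The monocyte and neutrophil sum had a median of 53.5 nRPKM in PS2APP;Trem2wt mice, above the highest PS2APP;Trem2ko mouse (49.3 nRPKM). This was so although the sort removed cells with Ccr2 or Ly6g on their surface. Of the 7 tested genes of this list, 5 had negative and 2 positive log2 fold changes, with a median of -1.40. Without adjustment 2 were lower, against 7.56% of all tested genes. The part of these cells in the fall of Kcnj2 and Kcna3 was not tested.

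For each channel the most similar genes over the 13 mice were found among 11014 genes with a mean of at least 1 nRPKM, by Pearson's correlation of log2(CPM + 1). Kcnj2 was most like Abi2 (r = 0.94) and Fam117b (r = 0.93), and Kcna3 most like Adamts1 (r = 0.90) and Ptk2 (r = 0.89). Of these 4, Abi2 (log2 fold change -0.45, adjusted p = 0.0117) and Adamts1 (log2 fold change -1.16, adjusted p = 0.000947) also fell in edgeR's quasi-likelihood test. They were picked over mice of both genotypes, so a fall beside Kcnj2 or Kcna3 is partly built into the choice. Taken as deviations from the genotype mean, the correlations were 0.79 for Abi2, 0.84 for Fam117b, 0.66 for Adamts1 and 0.72 for Ptk2. Kcnk13 was most like Fam49b (r = 0.86) and Nectin2 (r = 0.86), Kcnk6 most like Gpat4 (r = 0.90) and Ficd (r = 0.88), Kcnn4 most like Mgst3 (r = 0.87) and Tecr (r = 0.85), and Hvcn1 most like Susd6 (r = 0.94) and Tgfbr2 (r = 0.92). The nearest genes of the 6 channels were all different. Each pair was picked as the highest of 11014 correlations over only 13 mice. A high r is thus partly built into the choice, also when taken as deviations from the genotype mean. All values share the same 13 libraries, so these correlations are a description over mice.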

How the data were processed

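RNA-Seq libraries of sorted brain myeloid cells from 13 mice were analysed, 7 PS2APP;Trem2wt and 6 PS2APP;Trem2ko, each mouse being 1 replicate with a number that only names it. The methods say that mice of both genotypes were mostly handled as pairs up to the sort. The labels do not give these pairs, so the tests were unpaired and leave any effect of shared handling in the spread. The authors made SMART-seq v4 libraries, aligned single-end reads to GRCm38 with GSNAP, and deposited for each gene the read count and the nRPKM, an RPKM value scaled by a DESeq-like size factor. Whether counting used the strand is not given in the sources used here, and this kit does not mark it. Gene names were found for 52403 of 52636 identifiers, and coordinates are those of the annotation on GRCm38.

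Counts were tested with edgeR 4.0.16 in R 4.3.3 (filterByExpr by genotype, TMM scaling, glmQLFit and glmQLFTest, no covariate, Benjamini-Hochberg over 17086 genes). Its common biological coefficient of variation was 0.299. A gene was called at an adjusted p of 0.05 or less. For single genes, mean log2(nRPKM + 0.1) was also set against all 1716 splits of the mice (exact permutation, two-sided), with Python 3.11.15, numpy 2.4.6, pandas 2.3.3 and scipy 1.17.1. Intervals are 95% intervals, and limits of detection cover counting error only. Among 36 pairs of mice of one genotype no pair agreed within sampling noise (chi-square at least 19.6 times its degrees of freedom). The channels and the lists were chosen with earlier results of these data known.

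The genes named are the 6 channels, Trem2, the 8 other Kcn genes with the highest mean nRPKM and each one called, the 3 most abundant genes of a list with each one called, and the 2 genes most correlated with each channel. Genes set beside a channel as chromosomal neighbours, and Kcnk10, Cd3e, Cd79a, Cd79b, Ighm and Pax5, were named after their values were seen. 2 genes of the lists are not reported here. Each fit was repeated without each mouse in turn, in females alone, and with a term for sex. Other tools were DESeq2 1.42.0, voom+limma (limma 3.58.1) and limma on nRPKM as log2 after adding 0.1 or 1. Scaling by RLE, thinning to the smallest library, dropping the filter, asking for 10 counts in 6 mice, and a 2-fold threshold were the remaining alternatives. On simulated counts with known changes, edgeR recovered 73.4% of 192 changed genes among 16762 for this comparison (63.8% of those changed by 1 on the log2 scale and 85.1% of those changed by 2) and called 10 unchanged genes. Promoters are from RefSeq, and 4 of 6 channels matched.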

Additional observations from a re-analysis of the deposited data

Results flagged for a closer look

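In 3 of 32 groups of mice checked, a single mouse stood apart from the others of its genotype by Dixon's criterion, which chance meets in about 1 of 20 groups. Kcnk6 was at 32.2 nRPKM in PS2APP;Trem2ko replicate 1, the deepest library, where the other mice of that genotype had 43.2 to 49.1 nRPKM. Kcnk3 was at 1.83 nRPKM (718 counts) in PS2APP;Trem2wt replicate 3, where the others had 0.123 to 0.579 nRPKM. Trem2 was at 2.29 nRPKM (186 counts) in PS2APP;Trem2ko replicate 4, where the others had 0.393 to 0.979 nRPKM.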

How the results depend on the processing

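Kcnj2 was called in each of the 10 alternatives and the 13 fits without a mouse, and Kcnk6, Kcnn4, Hvcn1 and Kcnk13 in none. The number of channels called, 2 of 6, became 1 with females only, 1 with no filter and 0 with a 2-fold threshold, and was 1 to 2 on leaving out 1 mouse, the one lost being Kcna3. The log2 fold change of Kcna3 was -0.47 with females only and -0.55 with no filter (adjusted p = 0.0515), where it did not pass in edgeR, and -0.64 to -0.49 without 1 mouse. For Kcnk13, near 0, the log2 fold change turned positive at 0.000469 and 0.000430 with limma on log2(nRPKM + 0.1) and log2(nRPKM + 1), 0.00596 with no filter and 0.00264 with thinned counts, and was -0.0509 to 0.0440 without 1 mouse. That of Kcnk6 was -0.13 to 0.0171 without 1 mouse. The difference in the permutation test was -0.11 for Kcnk13 with females only, -0.0507 to 0.0490 for Kcnk13 and -0.13 to 0.0353 for Kcnk6 without 1 mouse. The number of other Kcn genes called, 2, became 1 with a 2-fold threshold, with sex as a covariate and with limma at either pseudocount, and 4 with DESeq2, which also called Kcnk12 and Kcnj9 (1 to 3 without 1 mouse). With voom+limma the number was again 2, with Kcnk10 called and Kcnk3 not. The number called in the 6 lists, 1, became 0 with the filter of 10 counts in 6 mice, with no filter and with limma on log2(nRPKM + 0.1), 2 with females only and 6 with DESeq2 (0 to 3 without 1 mouse). The cause was not tested. Over all genes DESeq2 called 526 lower and 325 higher where edgeR called 262 and 86. Kcn genes with few counts, 47 of the 94 others, were left out by the filter and have no test. No paired analysis was possible because the labels give no number that links mice across genotypes.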
